A study of Mus musculus with 6 samples.

Results

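The genes described here are 10 members of the Bcl2 family, chosen as the rows of the deposited expression table whose gene symbol is Bcl2, Bcl2l1, Mcl1, Bax, Bak1, Bcl2l11, Bbc3, Pmaip1, Bid or Bad, out of 41079 genes listed. Of these, 3 protect the cell (Bcl2, Bcl2l1 and Mcl1) and 7 promote death. They were measured by RNA sequencing of D10 T cells, a cloned mouse helper T cell line that the labels describe as CD4+ and derived from lymph node. The question was how the balance of survival and death transcripts compared between 3 replicates of non-acclimated T cells, kept for 24 h at 37°C, and 3 replicates of cold-acclimated T cells, kept for 24 h at 26°C. The labels give no other treatment for either condition, and the cells are a single clone that the methods describe as grown with the growth factor interleukin-2, so the comparison covers temperature in 1 cultured line and not T cells in tissue. The values are TPM, a measure of transcript abundance that divides reads by gene length and scales each library to the same total.

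Proteins of the Bcl2 family decide whether the outer membrane of the mitochondrion stays sealed. Bax and Bak1 can assemble into pores that release cytochrome c and start the caspase cascade, whereas Bcl2, Bcl2l1 (Bcl-xL) and Mcl1 hold them in check. The BH3-only proteins Bcl2l11 (Bim), Bbc3 (Puma), Pmaip1 (Noxa), Bid and Bad sense stress or loss of growth factor and bind the protectors, or in some cases Bax and Bak1 directly, through a short helix called the BH3 motif. In T cells, interleukin-2 and related cytokines maintain Bcl2, Bcl2l1 and Mcl1, and Bim is a major driver of death when such signals are withdrawn.

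The BH3 motif of the death proteins is the part that binds the protectors. Coding DNA with the motif's pattern is shown for the 3 survival genes, for the pore former Bax and for the BH3-only gene Bad. The transcript of Bad is compared with that of Bcl2l1 below. The motif was searched in the translated canonical GENCODE transcripts of GRCm39 as a leucine, any 3 residues, a glycine, alanine or serine, and an aspartate. The 18 bases that encode it are in capitals, with 15 bases before and 12 after.
Bcl2, chr1:106640302-106640346, minus strand, exon 1 of 2: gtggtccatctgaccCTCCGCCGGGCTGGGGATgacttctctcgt
Bcl2l1, chr2:152671614-152671658, minus strand, exon 2 of 3: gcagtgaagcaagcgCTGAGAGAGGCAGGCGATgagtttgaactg
Mcl1, chr3:95566732-95566776, plus strand, exon 1 of 3: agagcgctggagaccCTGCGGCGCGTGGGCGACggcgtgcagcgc
Bax, chr7:45115418-45115462, minus strand, exon 3 of 6: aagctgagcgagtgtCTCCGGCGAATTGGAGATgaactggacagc
Bad, chr19:6928145-6928189, plus strand, exon 2 of 3: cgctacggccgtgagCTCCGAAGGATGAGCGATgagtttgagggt
Each of the 9 members searched, all but Pmaip1, held exactly 1 match. The pattern is short, and 33.96% of 21770 canonical coding sequences held it, so a match alone does not mark a family member. Between pairs of the 9 members, 7 to 15 of the 18 capital bases were the same. The pattern fixes the leucine and the aspartate and narrows the residue before the aspartate, so the search itself set part of this identity. The number shared by unrelated matches was not computed. Bcl2l1 shared 11 of them with Bcl2, 10 each with Mcl1 and Bad, and 8 with Bax.

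The libraries held 16899628 to 31290854 reads on genes, recovered from the TPM values. The T cell marker Cd3e was at 476 to 874 TPM and the helper T cell factor Gata3 at 387 to 751 TPM, whereas the B cell marker Cd79a was at 0.587 TPM or less in every library. Of 12 T cell markers, 11 reached 1 TPM in at least 1 library. Cd4 went against the label of CD4+ cells in replicates 1 and 2, with 1.09 and 0.0351 TPM at 37°C and 1.30 and 0.352 TPM at 26°C. In replicate 3 it was 310 TPM at 37°C and 328 TPM at 26°C. The libraries of replicate 3 thus stood apart, and the members' fold changes and calls, and the number of calls over all pathway lists, are also given without them. Summed over the lists, B cell markers lay between 2.1 and 3.62 TPM at 37°C and between 1.02 and 2.06 TPM at 26°C, and macrophage and monocyte markers between 3.46 and 16.7 TPM and between 2.69 and 21.4 TPM. The erythroid markers summed to 79.9 to 487 TPM at 37°C and 61.3 to 474 TPM at 26°C, and Hbb-bs and Hbb-bt were at 0 TPM in all libraries while Hba-a1 held nearly all of the sum. The part of these differences in the results was not tested. In bulk RNA, fewer cells with a transcript and less of it per cell cannot be told apart.

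Of the 10 genes, 9 were expressed in every library and 1, Bcl2l11, was at or near 0 throughout. The genes were ordered by mean TPM at 37°C as Bax (373), Bak1 (117), Bcl2 (82.6), Mcl1 (75.5), Pmaip1 (40.5), Bad (38.4), Bid (37.1), Bcl2l1 (17.8), Bbc3 (13.7) and Bcl2l11. In this order the ranges of neighbours were separate only between Bax and Bak1, between Mcl1 and Pmaip1, and between Bbc3 and Bcl2l11. At 26°C the order was Bax (313), Bak1 (103), Bcl2 (90.2), Mcl1 (61.6), Pmaip1 (55.8), Bcl2l1 (54.9), Bid (46.6), Bad (19.0), Bbc3 (11.6) and Bcl2l11 (0). Here the ranges were separate between Bax and Bak1, between Bcl2 and Mcl1, and between Bbc3 and Bcl2l11. Bcl2l1 moved from the eighth to the sixth place, and Bad from the sixth to the eighth, whereas the first 5 places held the same genes in both conditions. The order between genes rests on the gene lengths within the deposited TPM, which for some members are far from the bases covered by GENCODE exons. For Mcl1 these were 8725 against 3491 bases, and for Bid 2401 against 9796. Another annotation could thus change the places and the separations.

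**Figure D1:**
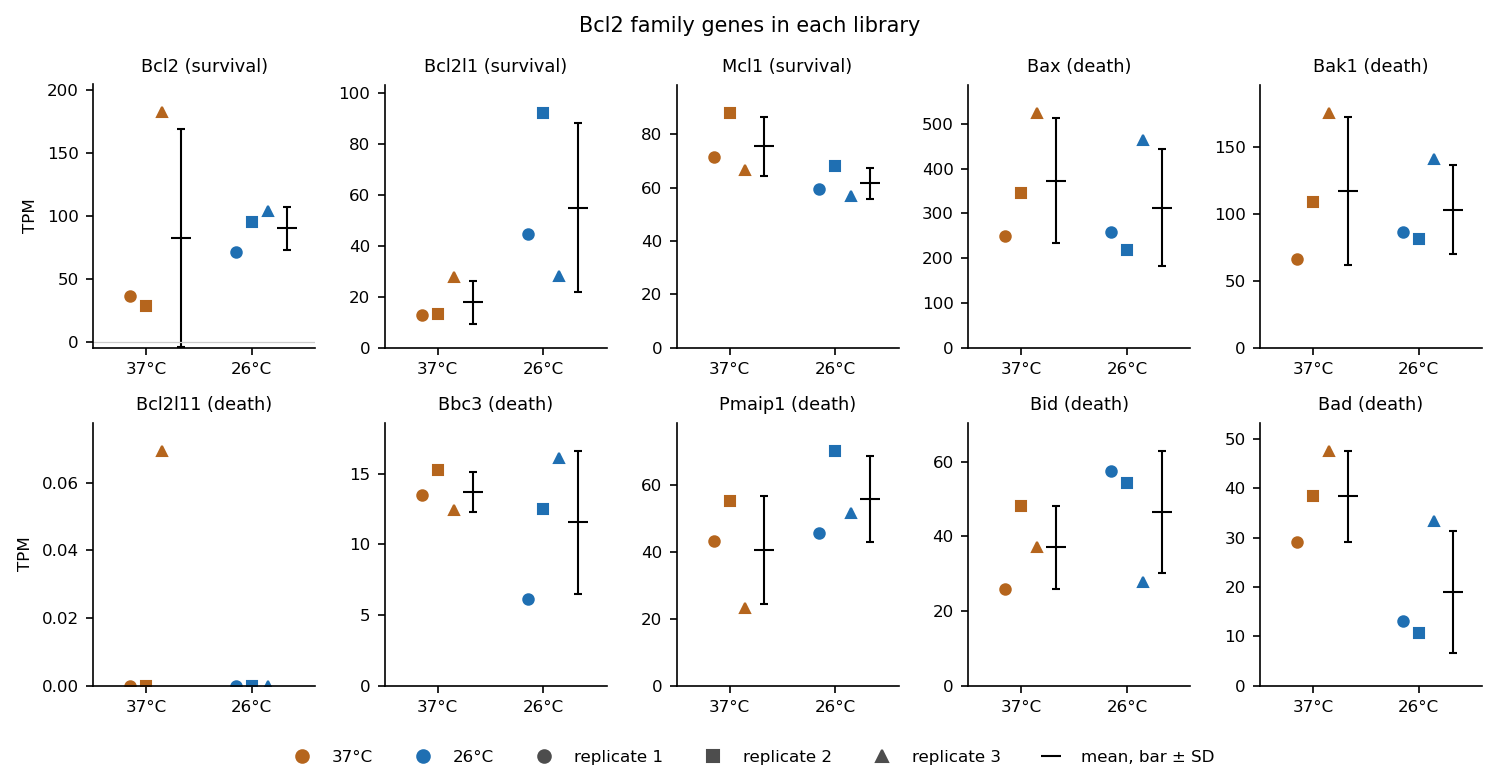
TPM (vertical axis, linear, a scale for each gene) of the 10 Bcl2 family genes in the 3 non-acclimated (37°C, brown) and 3 cold-acclimated (26°C, blue) libraries, with a symbol for each replicate and black bars for the mean ± SD, left out for Bcl2l11. With TPM as deposited, Bcl2l1 is the only one of the 9 tested genes whose conditions do not overlap, and replicate 3 holds the highest Bcl2, Bax, Bak1 and Bad values.

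Across all genes, differences were tested with limma on log2(TPM + 1) over the 12227 genes with a mean of at least 1 TPM, and a gene was called when its Benjamini-Hochberg adjusted p was under 0.05 and its log2 fold change reached 1 or -1. Of the 9 members tested, limma called 0 higher and 0 lower at 26°C, where 2.63% of all tested genes were called higher and 16.0% lower. At an unadjusted p under 0.05, 1 member was higher (Bcl2l1) and 1 was lower (Bad). The replicate numbers pair the libraries across the conditions, and with the replicate as a term in the fit both of these were called, beside 3.75% of all genes called higher and 21.9% lower. When every library was divided by a size factor, the median over genes of the ratio of its TPM to the gene's geometric mean (median of ratios scaling), Bcl2l1 was the 1 member called higher and 0 were called lower, beside 6.56% and 8.79% of all genes, and voom on the recovered reads likewise called 1 higher (Bcl2l1) and 0 lower, beside 5.86% and 9.56%. Without replicate 3, an alternative chosen after seeing the data, 2 were called higher (Bcl2 and Bcl2l1) and 1 lower (Bad), beside 5.34% and 25.3% of all genes.

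The rescaling matters for direction, since it moved the median log2 fold change over all genes from -0.34 to 0.02. The median of the 9 members was -0.12 with TPM as deposited and 0.28 after rescaling, on both scales above the median of all genes. By side, the median log2 fold change was 0.61 for the 3 survival genes and -0.19 for the 6 tested death genes, and 1.00 and 0.21 after rescaling. With 3 genes, the survival median is the value of 1 gene, Bcl2, which was not called on either scale. Mcl1 lay below 0 with TPM as deposited, at -0.28. With TPM as deposited, only Bcl2l1 had no overlap between the conditions, 1 of the 9, higher in cold-acclimated cells, where 9.69% of all tested genes were higher without overlap and 31.4% lower. After rescaling, 2 of the 9 (Bcl2l1 and Pmaip1) were higher without overlap and 0 lower, beside 20.5% and 20.3% of all tested genes. In all 3 replicates, 2 members were higher at 26°C (Bcl2l1 and Pmaip1) and 2 were lower (Mcl1 and Bad), beside 18.2% and 47.9% of all tested genes.

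**Figure D2:**
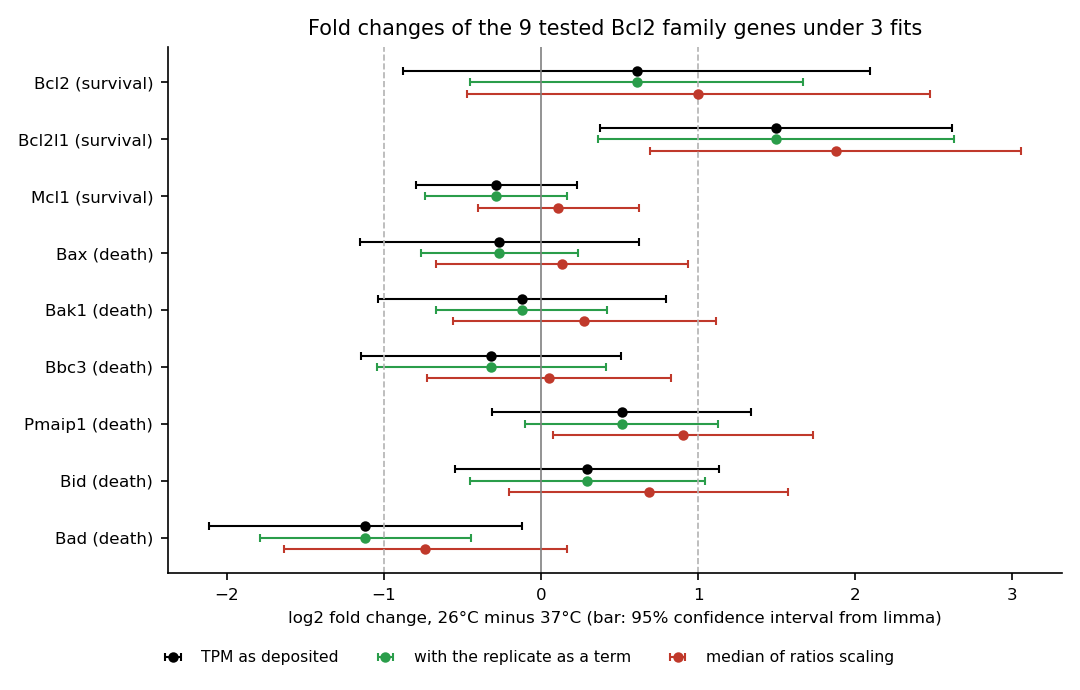
Log2 fold change (horizontal axis, 26°C minus 37°C) of the 9 tested Bcl2 family genes, with 95% confidence intervals from limma, for TPM as deposited (black), with the replicate as a term (green) and after median of ratios scaling (red), and dashed lines at -1 and 1. The interval of Bcl2l1 lies above 0 in all 3 fits, and that of Bad lies below 0 in the first and second but reaches 0.17 after rescaling.

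Among the 3 survival genes, Bcl2l1 had the largest difference. Bcl2l1 (chr2:152600652-152673632, minus strand), whose protein Bcl-xL guards the mitochondrial membrane and is induced in activated T cells, was at 12.8, 13.0 and 27.5 TPM in non-acclimated replicates 1, 2 and 3. It was at 44.5, 92.1 and 28.1 TPM in cold-acclimated replicates 1, 2 and 3. All cold-acclimated values lay above all non-acclimated ones, but the libraries of replicate 3 nearly met. The mean went from 17.8 ± 8.45 TPM to 54.9 ± 33.3 TPM (SD, n = 3 each), a ratio of 3.09. The log2 fold change was 1.49 ± 0.48 (SE; 95% confidence interval 0.38 to 2.61), and the adjusted p of 0.063 in limma missed the threshold. By replicate, the log2 difference was 1.72, 2.73 and 0.03. With the replicate as a term the adjusted p was 0.049 in limma, and after rescaling the log2 fold change was 1.88 with an adjusted p of 0.042. Leaving out the cold-acclimated library of replicate 3 gave 1.88 (adjusted p = 0.023 in limma), leaving out its non-acclimated library gave 1.84 (adjusted p = 0.046), and leaving out both gave 2.23 (adjusted p = 0.0089). Leaving out any 1 of the other 4 libraries gave 1.04 to 1.56, with adjusted p of 0.14 to 0.18 in limma, none of them calls. The gene shares 6306 bases with Cox4i2 on the opposite strand, which was at 0.159 TPM or less.

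Bcl2 (chr1:106465906-106642020, minus strand), the founding member and a T cell survival factor, was at 36.4, 29.0 and 182 TPM at 37°C and at 71.4, 95.0 and 104 TPM at 26°C. The non-acclimated library of replicate 3 was the highest of all 6 and made the conditions overlap, while every cold-acclimated value exceeded the non-acclimated values of replicates 1 and 2. The log2 fold change was 0.61 ± 0.64 (SE; 95% confidence interval -0.88 to 2.1; adjusted p = 0.53 in limma). It was 1.43 without the non-acclimated library of replicate 3 (adjusted p = 0.022 in limma) and 1.32 without both libraries of replicate 3 (adjusted p = 0.014), and both of these were calls. Leaving out any 1 of the other 5 libraries gave 0.12 to 0.77, with adjusted p of 0.55 to 0.92 in limma, and the value was lowest without the non-acclimated library of replicate 2. By replicate, the log2 difference was 0.95, 1.68 and -0.80, so replicate 3 differed in sign from the other replicates.

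Mcl1 (chr3:95564017-95583553, plus strand), a protector with a short-lived protein, varied least among the survival genes, with 71.4, 88.2 and 66.8 TPM at 37°C and 59.6, 68.3 and 56.8 TPM at 26°C. The values of the conditions overlapped, and each replicate was slightly lower at 26°C. The log2 fold change was -0.28 ± 0.22 (SE; 95% confidence interval -0.79 to 0.23; adjusted p = 0.39 in limma) with TPM as deposited and 0.11 after rescaling, so its direction depended on the scaling. Without replicate 3 it was -0.31. Mcl1 shares 43 bases with Adamtsl4 on the opposite strand, and the strand setting of the counting is not given in the sources used here.

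The pore formers were the most abundant death genes. Bax (chr7:45111124-45116332, minus strand) was at 249, 346 and 525 TPM at 37°C and at 258, 218 and 464 TPM at 26°C, and made up 48.8% to 64.0% of the summed TPM of the 7 death genes in the 6 libraries. Both conditions had their highest Bax value in replicate 3, and the ranges overlapped. The log2 fold change was -0.26 ± 0.38 (SE; 95% confidence interval -1.15 to 0.62; adjusted p = 0.66 in limma), 0.14 after rescaling, 0.016 without the non-acclimated library of replicate 3 and -0.31 without both of its libraries. Bak1 (chr17:27238786-27247601, minus strand), which sits in the outer mitochondrial membrane, was at 66.3, 109 and 175 TPM at 37°C and at 86.2, 81.0 and 141 TPM at 26°C. It too was highest in replicate 3 in both conditions, with overlapping ranges. Its log2 fold change was -0.12 ± 0.39 (SE; 95% confidence interval -1.04 to 0.79; adjusted p = 0.86 in limma), and it was above 0 after rescaling (0.28), without the cold-acclimated library of replicate 2 (0.026) and without the non-acclimated library of replicate 3 (0.22). Without both libraries of replicate 3 it was -0.025. The whole of Bak1 lies opposite to Ggnbp1, which was at 1.82 to 3.36 TPM.

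Among the tested BH3-only genes, Bad differed most with TPM as deposited. Bad (chr19:6919229-6929273, plus strand), whose protein is held inactive by growth factor signalling through its phosphorylation, was at 29.2, 38.4 and 47.6 TPM at 37°C and at 13.1, 10.7 and 33.3 TPM at 26°C. Each replicate was lower at 26°C, yet the conditions overlapped because the cold-acclimated value of replicate 3 exceeded the non-acclimated value of replicate 1. The mean went from 38.4 ± 9.22 TPM to 19.0 ± 12.4 TPM (SD, n = 3 each), a ratio of 0.496. The log2 fold change was -1.12 ± 0.43 (SE; 95% confidence interval -2.11 to -0.12; adjusted p = 0.10 in limma), which was no call. With the replicate as a term the adjusted p was 0.025 in limma, and without the cold-acclimated library of replicate 3 the log2 fold change was -1.59 (adjusted p = 0.0091), both of them calls. Without both libraries of replicate 3 it was -1.42 (adjusted p = 0.012 in limma), also a call. Leaving out any 1 of the other 5 libraries gave -1.30 to -0.81, with adjusted p of 0.14 to 0.28 in limma, none of them calls, and the difference was smallest without the cold-acclimated library of replicate 2. After rescaling it was -0.73 with an adjusted p of 0.21 in limma, under the fold threshold and smaller in size than the 0.90 of Pmaip1. With rescaling and the replicate as a term together, the adjusted p of Bad was 0.065 in limma, again no call. Bad shares 590 bases with Gpr137 on the opposite strand, which was at 10.7 to 21.2 TPM.

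Bcl2l11 (chr2:127967958-128004467, plus strand), which encodes Bim, was listed at 0 TPM in 5 of the 6 libraries and at 0.0694 TPM, or 5 recovered reads, in the non-acclimated library of replicate 3. With 0 reads, up to 3 reads per library remain possible, which corresponds to 0.0491 to 0.0730 TPM in these 5 libraries and covers counting error only. It was therefore not tested, and no fold is given. Of 8 housekeeping genes, 0 were at 0 in any library and the lowest value was 9.52 TPM. That value belonged to Gapdh, which was at 9.52 to 66.9 TPM, where Actb was at 1679 to 6245 TPM. Why Gapdh was low, and whether reads of Bcl2l11 were lost in mapping or counting, was not tested. Bcl2l11 shares 215 bases on the same strand with Acoxl, which was at 0.155 TPM or less.

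With TPM as deposited, the other BH3-only genes overlapped between the conditions. Pmaip1 (chr18:66591675-66598629, plus strand), whose protein Noxa binds Mcl1, was at 43.3, 55.0 and 23.2 TPM at 37°C and at 45.6, 70.2 and 51.5 TPM at 26°C. The lowest value was the non-acclimated library of replicate 3, and each replicate was higher at 26°C. Its log2 fold change was 0.51 ± 0.35 (SE; 95% confidence interval -0.31 to 1.34; adjusted p = 0.33 in limma) and 0.90 after rescaling (adjusted p = 0.11), where the conditions did not overlap. With rescaling and the replicate as a term together, the adjusted p at that 0.90 was 0.031 in limma, under the fold threshold and so no call. Leaving out 1 library gave 0.17 to 0.77, and leaving out replicate 3 gave 0.21. Bid (chr6:120870080-120894074, minus strand), which caspase-8 cleaves to link death receptors to mitochondria, was at 25.9, 48.1 and 37.2 TPM at 37°C and at 57.7, 54.3 and 27.7 TPM at 26°C. Replicates 1 and 2 were higher and replicate 3 lower at 26°C, with a log2 fold change of 0.30 ± 0.36 (SE; 95% confidence interval -0.55 to 1.14; adjusted p = 0.59 in limma) and 0.65 without replicate 3. Bbc3 (chr7:16042307-16052130, plus strand), a p53 target that encodes Puma, was at 13.5, 15.3 and 12.5 TPM at 37°C and at 6.11, 12.5 and 16.1 TPM at 26°C. The cold-acclimated values lay on both sides of the non-acclimated ones. Its log2 fold change was -0.32 ± 0.36 (SE; 95% confidence interval -1.14 to 0.51; adjusted p = 0.56 in limma), 0.051 after rescaling, 0.050 without the cold-acclimated library of replicate 1 and -0.65 without replicate 3. For these genes and for Mcl1, Bax and Bak1, the intervals bound the difference and do not show that the levels were the same.

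Differences between genes within a library depend little on the scaling between libraries, and they are given on the log2(TPM + 1) scale as a description. Bcl2l1 minus Bad was -1.13, -1.49 and -0.77 at 37°C and 1.69, 2.99 and -0.24 at 26°C. With the deposited TPM, Bcl2l1 was thus below Bad in every non-acclimated library and above it in replicates 1 and 2 at 26°C, and the conditions did not overlap. The gene lengths within the TPM were 5102 bases for Bcl2l1 and 1521 for Bad, where the GENCODE exons cover 5136 and 4485 bases. Which of the genes is higher therefore depends on the annotation. A change of length alone would alter the shift between the conditions little, but no recount of reads with another annotation was run. In TPM, the ratio of Bcl2l1 to Bad was 0.438, 0.338 and 0.578 at 37°C and 3.40, 8.58 and 0.842 at 26°C. Bcl2l1 minus Bax was -4.18, -4.63 and -4.21 at 37°C and -2.51, -1.23 and -4.0 at 26°C, again without overlap. The TPM of Bax was 19.5, 26.6 and 19.1 times that of Bcl2l1 at 37°C and 5.80, 2.36 and 16.5 times at 26°C. Bcl2l1 minus Bak1 went from a mean of -2.63 ± 0.34 to -1.01 ± 1.24 (SD, n = 3 each), also without overlap. In all 3 pairs the shift was smallest in replicate 3, at 0.53 against Bad, 0.21 against Bax and 0.34 against Bak1. All 3 pairs hold Bcl2l1, so they are not separate observations. The share of all gene pairs without overlap was not computed.

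Mcl1 moved the other way against Pmaip1, the transcript of its binding partner Noxa. Mcl1 minus Pmaip1 was 0.71, 0.67 and 1.49 at 37°C and 0.38, -0.04 and 0.14 at 26°C. The conditions did not overlap, and the mean difference between them was -0.80, with the largest shift in replicate 3. Mcl1 minus Bak1 and Bcl2 minus Bax overlapped between the conditions, with mean shifts of -0.16 and 0.87.

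Averaged over the members, the survival genes minus the death genes came to 0.35, -0.07 and 1.03 at 37°C and to 1.22, 1.64 and 0.70 at 26°C. The conditions overlapped through replicate 3, whose value was lower at 26°C, whereas replicates 1 and 2 were higher there. The mean shift was 0.76, with shifts by replicate of 0.88, 1.72 and -0.33, and it was 1.30 without replicate 3. It was 0.77 without Bcl2l11 and 0.49 with medians in place of means. Bcl2l11 was near 0 throughout, so leaving it out could change the shift only little. Of the survival genes, Bcl2l1 had a log2 fold change of 1.49, Bcl2 of 0.61 and Mcl1 of -0.28. The shift without Bcl2l1, the largest of these, was not computed. The levels depended on Bcl2l11, which is near 0 and lowers the death mean. Without it they were -0.44, -0.93 and 0.19 at 37°C and 0.45, 0.85 and -0.15 at 26°C. Their sign thus changed in replicate 1 at 37°C and in replicate 3 at 26°C. The summed TPM of the 3 survival genes was 121, 130 and 277 at 37°C and 176, 255 and 189 at 26°C, and that of the 7 death genes was 427, 611 and 821 at 37°C and 467, 446 and 733 at 26°C. Summed in this way with the deposited TPM, death transcripts exceeded survival transcripts in every library, and Bax made up 48.8% to 64.0% of the death sum. The level of one side against the other rests on the gene lengths within the TPM. These were 958 bases for Bax and 8725 for Mcl1, where the GENCODE exons cover 1856 and 3491 bases.

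**Figure D3:**
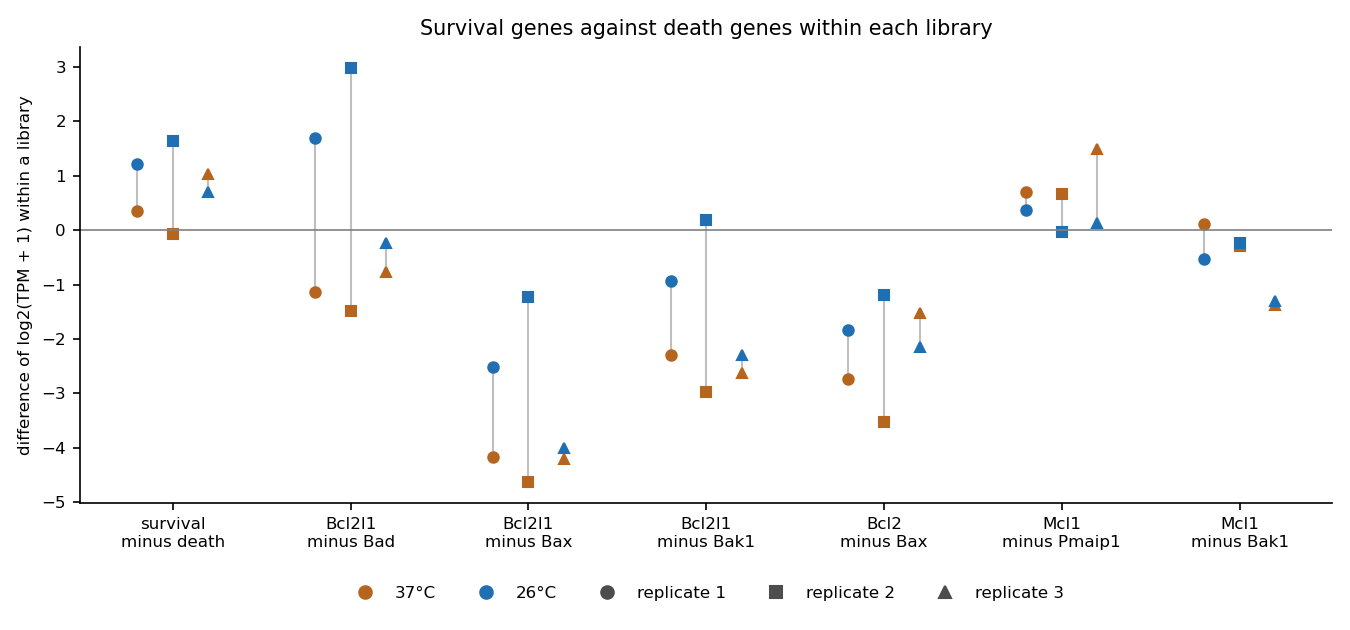
Difference of log2(TPM + 1) between genes within each library (vertical axis) for the mean of survival minus death genes and for 6 pairs, at 37°C (brown) and 26°C (blue), with a grey line joining the libraries of each replicate. The brown and blue points do not overlap for Bcl2l1 minus Bad, Bax or Bak1 and for Mcl1 minus Pmaip1, and the lines of replicate 3 are short in the Bcl2l1 pairs.

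The other genes of the pathway were listed from general knowledge, 99 genes in 5 lists, of which 88 were tested. The lists were written with earlier results of these data known, so their shares of calls are a description only. limma called 0 of them higher and 17 lower (19.3%), beside 16.0% of all tested genes lower. With the replicate as a term, 0 were called higher and 24 lower (27.3%), beside 21.9%. After rescaling, 3 were called higher (Stat5a, Tomm20 and Dffb) and 9 lower (10.2%), beside 8.79%, so the share of lower calls was a little above that of all genes on each scale. Of the 17, the calls of 5 (Apaf1, Fadd, Il2ra, Pim1 and Trp73) were kept under every alternative run. Leaving out 1 library kept 7 of the 17 calls when it was the library of replicate 1 at either temperature or of replicate 2 at 26°C, 5 when it was replicate 2 at 37°C and 13 when it was replicate 3 at 37°C, and the adjusted p of the calls lost in these fits was between 0.0505 and 0.146 in limma. All 17 were kept without the cold-acclimated library of replicate 3, and also without both libraries of replicate 3, where 24 genes were called lower (27.3%) and 1 higher (Stat5a), beside 25.3% and 5.34% of all tested genes.

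Among the other Bcl2 family genes, 3 of 10 tested (30.0%, beside 16.0% of all genes) were called lower and 0 higher, with a median log2 fold change of -0.53. Bcl2l2 (chr14:55120900-55125691, plus strand), which encodes the protector Bcl-w, was at 11.7, 14.0 and 12.6 TPM at 37°C and at 2.95, 3.04 and 4.26 TPM at 26°C. All cold-acclimated values lay far below all non-acclimated ones, including those of replicate 3. It fell by 1.65 ± 0.26 on the log2 scale (SE; adjusted p = 0.0090 in limma), with a log2 fold change of -1.31 after rescaling (adjusted p = 0.017), and its adjusted p rose to 0.052 without the non-acclimated library of replicate 2. Bnip3, a mitochondrial protein of hypoxia and mitophagy, and Bnip2 were called lower, with log2 fold changes of -1.19 and -1.02 (adjusted p = 0.029 and 0.022 in limma), but were not called after rescaling (-0.79 and -0.63). Bnip3l, a mitophagy receptor, did not pass the test (-0.71, adjusted p = 0.15 in limma), nor did Bcl2l12 (-0.55), Bcl2l13 (-0.30) and Bcl2l15 (0.21). The near-identical paralogs Bcl2a1a, Bcl2a1b and Bcl2a1d, which encode the protector A1, had log2 fold changes of 0.05, -0.0026 and -0.50 and were not called. Reads can be split between these copies, so their values are uncertain.

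Downstream of the mitochondrion, 3 of 19 genes of the apoptosome and caspase list (15.8%, beside 16.0% of all genes) were called lower and 0 higher, with a median log2 fold change of -0.40. Apaf1, the scaffold on which cytochrome c assembles the apoptosome, was at 26.2, 22.0 and 25.4 TPM at 37°C and at 3.39, 1.76 and 6.60 TPM at 26°C. The conditions were far apart, and replicate 3 was the highest at 26°C. It fell by 2.49 ± 0.38 on the log2 scale (SE; adjusted p = 0.0090 in limma), with -2.15 after rescaling (adjusted p = 0.014). The mitochondrial protease Htra2 was called lower at -1.02 (adjusted p = 0.032 in limma) and was not called after rescaling (-0.63).

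In the death receptor list, 5 of 10 tested genes (50.0%, beside 16.0% of all genes) were called lower and 0 higher, with a median log2 fold change of -1.05, and 2 of 10 (20.0%, beside 8.79%) were called lower after rescaling. Of the receptors themselves only Fas was tested, and it was not called (-0.36, adjusted p = 0.65 in limma). The other genes not called were Cflar (-0.80), Tnfsf10 (-1.04), Ripk1 (0.11) and Ripk3 (-0.15). The adaptor Fadd, which recruits caspase-8 to death receptors, was at 22.3, 31.9 and 18.3 TPM at 37°C and at 5.83, 2.78 and 4.09 TPM at 26°C. It fell by 2.27 ± 0.33 on the log2 scale (SE; adjusted p = 0.0080 in limma), and each cold-acclimated value lay below each non-acclimated one. Casp8, the initiator caspase that cleaves Bid, was at 116, 113 and 98.1 TPM and at 42.3, 39.8 and 45.0 TPM, also without overlap. Its log2 fold change was -1.34 ± 0.20 (SE; adjusted p = 0.0088 in limma) and, at -0.95, just short of the fold threshold after rescaling. Mlkl, the effector of necroptosis, fell by 1.86 (adjusted p = 0.014 in limma) and was called after rescaling (-1.47). The deubiquitinase Cyld (-1.05) and the adaptor Tradd (-1.06) were called lower with TPM as deposited and not after rescaling (-0.67 and -0.66).

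Of the 35 tested regulators of the members, 5 (14.3%, beside 16.0% of all genes) were called lower and 0 higher, with a median log2 fold change of 0.02. After rescaling, 5 were called lower (14.3%, beside 8.79%) and 1 higher (2.86%, beside 6.56%). Il2ra, the high-affinity chain of the interleukin-2 receptor, was at 1360, 1674 and 2026 TPM at 37°C and at 327, 217 and 313 TPM at 26°C. It fell by 2.56 ± 0.27 on the log2 scale (SE; adjusted p = 0.0067 in limma). Its Gm39760 neighbour overlaps it on the opposite strand for 10507 bases, at 4.56 to 28.4 TPM. Stat5b and the kinase Pim1, both downstream of that receptor, fell by 1.66 and 1.44 (adjusted p = 0.022 and 0.0087 in limma), whereas Stat5a, at 0.95 (adjusted p = 0.036 in limma), missed only the fold threshold with TPM as deposited and was called higher after rescaling, at 1.35 (adjusted p = 0.019). Trp53, which encodes the p53 protein that induces Bax, Bbc3 and Pmaip1, was at 160, 182 and 223 TPM at 37°C and at 47.2, 35.5 and 99.5 TPM at 26°C. It fell by 1.74 ± 0.38 (SE; adjusted p = 0.022 in limma), with -1.35 after rescaling (adjusted p = 0.037). Leaving out any 1 library other than the cold-acclimated library of replicate 3 took its adjusted p to between 0.0505 and 0.084. Its relative Trp73 fell by 2.30 (adjusted p = 0.0083 in limma).

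Among the 14 mitochondrial partners, 1 (7.14%, beside 16.0% of all genes) was called lower and 0 higher, with a median log2 fold change of -0.07. Opa1, which shapes the inner membrane, was at 31.7, 32.4 and 40.6 TPM at 37°C and at 9.50, 7.86 and 23.0 TPM at 26°C. Its log2 fold change was -1.45 ± 0.39 (SE; adjusted p = 0.039 in limma), and it was not called after rescaling (-1.07, adjusted p = 0.074) but was called with rescaling and the replicate as a term together (adjusted p = 0.025). The import receptor Tomm20 was called higher after rescaling, at 1.13 (adjusted p = 0.030 in limma).

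**Figure D4:**
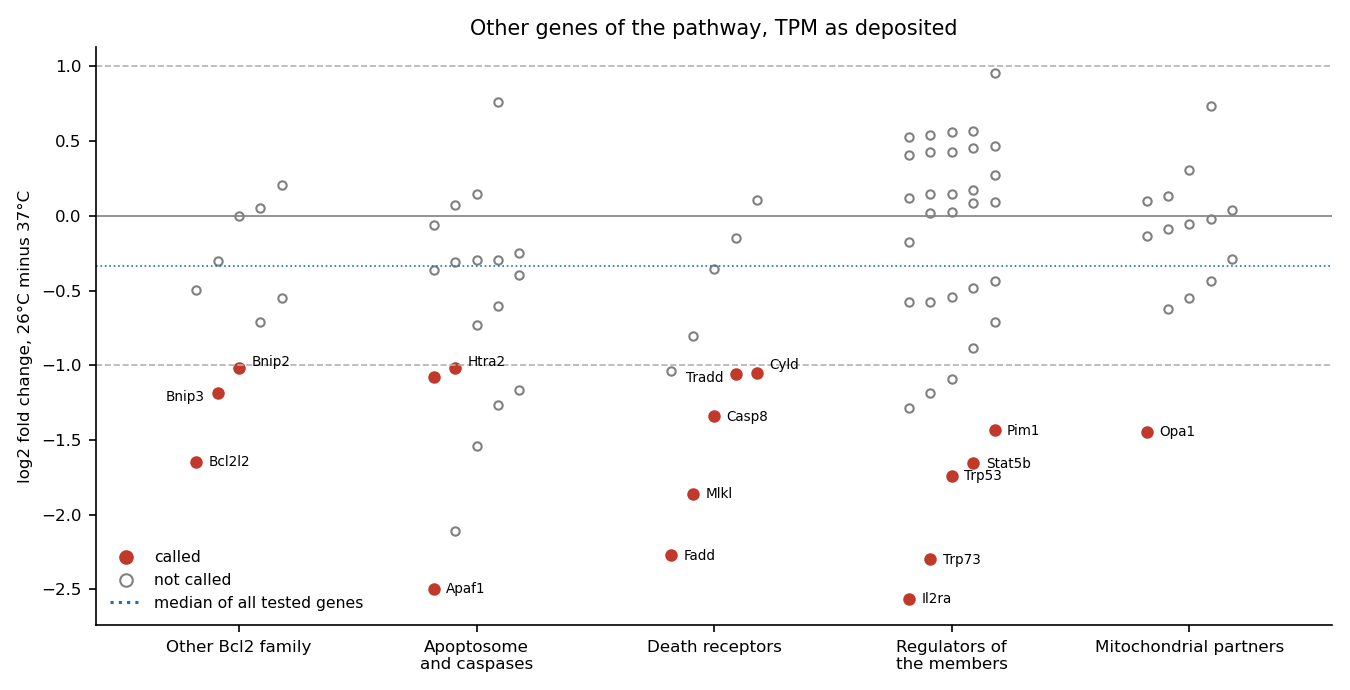
Log2 fold change (vertical axis, 26°C minus 37°C, TPM as deposited) of the 88 tested genes of the pathway lists outside the 10 members, with called genes filled in red, most of them named, others open, dashed lines at -1 and 1 and a dotted line at the median of all tested genes, -0.34. All 17 called genes lie below -1, and 5 of them belong to the 10 tested genes of the death receptor list.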

How the data were processed

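Poly(A)+ RNA was sequenced paired-end from strand-specific libraries. The submitters' processing notes name FastQC 0.11.7, Trimmomatic 0.38, HISAT2 2.1.0 and featureCounts 1.6.3 with GRCm39, and the study's methods name DESeq2. The authors deposited TPM, counts divided by gene length and scaled to one total per library; the sources used here give neither the annotation release nor the strand setting. A gene's TPM values share a smallest step, the worth of 1 read, which gave back the read numbers, whole within 1e-06 reads for 100% of 21195 genes. The libraries held 16899628 to 31290854 such reads, and the 9 expressed members 147 to 16126 per library, a counting error of at most 8.25%.

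limma 3.58.1 (R 4.3.3; mean-variance trend) was run on log2(TPM + 1), which understates the change of low genes, over genes averaging 1 TPM or more, without a replicate term. Calls needed a Benjamini-Hochberg adjusted p under 0.05 over all tested genes and a log2 fold change reaching 1 or -1. The p-values measure the spread between 3 replicate samples per condition, which the study describes as independently prepared; the labels mention old and new extraction batches without assigning them. Replicate numbers pair the libraries, since deviations from the condition means correlated at 0.48 to 0.51 across genes for equal numbers and at -0.41 to 0.02 for unequal ones. Alternatives were a pseudocount of 0.1, no filter, median of ratios scaling, a replicate block, voom on recovered reads, and leaving out each library. Added after seeing the data were leaving out replicate 3, the block with rescaling, and all of these for the pathway lists. The members, lists and rules were chosen with earlier results of these data known. Named were all members, up to 4 called genes per list by p, and other expressed family members. Tradd, Stat5b, Stat5a, Tomm20, Dffb, Fas, Cflar, Tnfsf10, Ripk1, Ripk3, Gapdh and Actb were named after their values were seen. Some genes under these rules are not reported here. The fits were also run on simulated libraries with known changes. These had no replicate pairing, no replicate standing apart and no shift over all genes, so they did not test these features. Motifs were searched in GENCODE vM39 coding sequences. Python 3.11.15, numpy 2.4.6, pandas 2.3.3 and matplotlib 3.10.9 were used.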

Additional observations from a re-analysis of the deposited data

How the results depend on the processing

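Bcl2 family members were called higher in 0 and lower in 0 cases with TPM as deposited. The numbers were 1 and 0 after median of ratios scaling and with voom on the recovered reads, 1 and 1 with the replicate block, which follows the pairing of the libraries, 1 and 0 with block and rescaling together, and 2 and 1 without replicate 3. The last 2 settings were chosen after seeing the data. Leaving out 1 library gave 0 to 2 higher and 0 to 1 lower. The pseudocount and the filter changed no member's call.

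Directions of members with small differences turned with the scaling. After median of ratios scaling, with and without the block, the log2 fold change became 0.11 for Mcl1, 0.14 for Bax, 0.28 for Bak1 and 0.051 for Bbc3, and with voom 0.088, 0.11, 0.24 and 0.052. Leaving out 1 library took Bax to between -0.59 and 0.016, Bak1 to between -0.47 and 0.22, and Bbc3 to between -0.58 and 0.050, and Bbc3 was at -0.65 without replicate 3. The mean shift of survival minus death genes was 0.50 to 1.05 without 1 library and 1.30 without replicate 3.

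Other pathway genes called lower numbered 17 with TPM as deposited, 24 without replicate 3, 11 with no filter, 9 after rescaling and with voom, 11 with block and rescaling, and 5 to 22 without 1 library. Those called higher numbered 3 after rescaling, with voom, and with block and rescaling, 1 without replicate 3, and 0 to 1 without 1 library. Bcl2a1b became 0.37 after rescaling, with and without the block, 0.36 with voom and -0.67 to 1.01 without 1 library; Bcl2l13 became 0.085 after rescaling, with and without the block, and 0.066 with voom; Bcl2a1a became -0.063 without replicate 3 and -0.34 to 0.41 without 1 library.

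Over all genes, 321 were called higher and 1954 lower, against 184 and 1121 with no filter, 802 and 1075 after rescaling, 717 and 1169 with voom, and 653 and 3088 without replicate 3. With block and rescaling 1086 were higher and 1544 lower, and without 1 library 59 to 459 were higher and 345 to 2725 lower. The cause of these shifts was not tested. Read depth limited the members little beside the spread between the 3 replicates, which sets the width of the 95% confidence intervals.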
